A study of Mus musculus with 4 samples.

Results

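Annexins, S100 proteins and their companions in the injury response were followed as 10 genes, listed in the deposited expression table as ANXA1, ANXA2, ANXA3, ANXA5, S100A4, S100A6, S100A10, S100A11, LGALS1 and TGM2 and written here with their mouse symbols. They were taken by symbol from the table, which holds 14123 genes at 7 days post injury (dpi) and 11470 at 21 dpi after symbols on 2 rows were set aside. All 10 were listed at 7 dpi. S100a6 had no row at 21 dpi, so 9 of the 10 could be followed over time.

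RNA was taken from lesion-site spinal cord of male mice in 4 groups, ApoE3 at 7 dpi, ApoE4 at 7 dpi, ApoE3 at 21 dpi and ApoE4 at 21 dpi. In all of them a human ApoE isoform stands in place of the mouse gene (targeted replacement), and all had a contusion of 50 kdyne under 3% isoflurane. Mice were 3 to 5 months old at injury, with 3 mice per genotype and time point according to the methods of the study. The table gives 1 value per gene and group, so the mice of a group are pooled in it, and no uninjured group was analysed here. No difference between groups therefore has a replicate check, and every comparison is a description without a test. Values are FPKM (fragments scaled to transcript length and to sequencing depth), and all libraries were down-sampled to a common number of reads, but how many of these lie behind the value of a gene is unknown.

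The table allows a second reading of genotype. The name in each row puts ApoE3 first and ApoE4 second, and on that ground the first value was read as ApoE3. The numbering of its columns would pair the first value with ApoE4 instead, and under that reading ApoE3 and ApoE4 would change places in every sentence that names a genotype, the comparisons over time included.

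Annexins bind acidic phospholipids on the inner face of the membrane when calcium enters a cell, as happens at a wound, and take part in membrane resealing, vesicle traffic and the end of inflammation. S100 proteins are small calcium-binding dimers of the EF-hand family, and several of them work as partners of annexins, S100a10 with Anxa2 and S100a11 with Anxa1 and Anxa2. Both families are abundant in reactive glia, phagocytes and fibroblasts of injured nervous tissue. Galectin-1 (Lgals1) is a sugar-binding lectin and transglutaminase 2 (Tgm2) a calcium-dependent enzyme that cross-links proteins of the extracellular matrix.

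Among the 4 annexins of the member list, Anxa5, the phosphatidylserine-binding protein used to stain dying cells, was the most abundant, with 259.8 FPKM in ApoE3 and 281 FPKM in ApoE4 at 7 dpi and with 238 and 302 FPKM at 21 dpi. Anxa2, which links membranes to actin and to plasminogen activation, had 62.1 FPKM in ApoE3 and 82.2 FPKM in ApoE4 at 7 dpi, and 59.3 and 66.6 FPKM at 21 dpi. Anxa3 had 53.9 FPKM in ApoE3 and 65.3 FPKM in ApoE4 at 7 dpi, and 27.2 and 50.15 FPKM at 21 dpi. These 3 genes were well above 10 FPKM in each of the 4 groups. Anxa1, the glucocorticoid-induced annexin that limits leukocyte recruitment, had 26.6 FPKM in ApoE3 and 37.2 FPKM in ApoE4 at 7 dpi but 1.84 and 1.47 FPKM at 21 dpi. It was the lowest of the members in every group.

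Of the S100 genes, S100a10, which binds Anxa2 and does not respond to calcium, had 162 FPKM in ApoE3 and 184 FPKM in ApoE4 at 7 dpi, and 221 and 306 FPKM at 21 dpi. S100a11 had 145 FPKM in ApoE3 and 218 FPKM in ApoE4 at 7 dpi, and 75.3 and 87.8 FPKM at 21 dpi. S100a6 had 192 FPKM in ApoE3 and 234 FPKM in ApoE4 at 7 dpi. S100a4, known from motile fibroblasts, phagocytes and white matter astrocytes, was the lowest of these S100 genes at each time point. It had 61.8 FPKM in ApoE3 and 72.2 FPKM in ApoE4 at 7 dpi, and 54.3 and 71.0 FPKM at 21 dpi. S100a10 was the member with higher FPKM at 21 dpi than at 7 dpi in both genotypes, whereas S100a11 was lower at 21 dpi in both. S100a11 has a pseudogene, S100a11-ps, with which reads could be split, so its values are uncertain to that extent.

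Lgals1 had 141 FPKM in ApoE3 and 188 FPKM in ApoE4 at 7 dpi, and 61.7 and 84.8 FPKM at 21 dpi. Tgm2 had 32.5 FPKM in ApoE3 and 51.5 FPKM in ApoE4 at 7 dpi, and 14.8 and 15.2 FPKM at 21 dpi. Both genes were higher at 7 dpi than at 21 dpi in each genotype. Lgals1 also has a pseudogene, Lgals1-ps1, and overlaps the gene model Gm30368, and reads from these copies cannot be told apart from its own here.

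In order of FPKM, the members at 7 dpi in ApoE3 ran from Anxa5 through S100a6, S100a10, S100a11, Lgals1, Anxa2, S100a4, Anxa3 and Tgm2 to Anxa1. In ApoE4 at 7 dpi S100a11 and Lgals1 stood above S100a10 and the order was otherwise the same. Anxa5 led in ApoE3 at 21 dpi and S100a10 in ApoE4 at 21 dpi, where they had 302 and 306 FPKM. With no spread between mice, neighbours in these orders cannot be separated. Summed over the 9 members listed at both time points, the level was 945 FPKM in ApoE3 and 1180 FPKM in ApoE4 at 7 dpi, and 753 and 985 FPKM at 21 dpi. In bulk tissue, fewer cells of a type and less RNA per cell cannot be told apart.

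**Figure D1:**
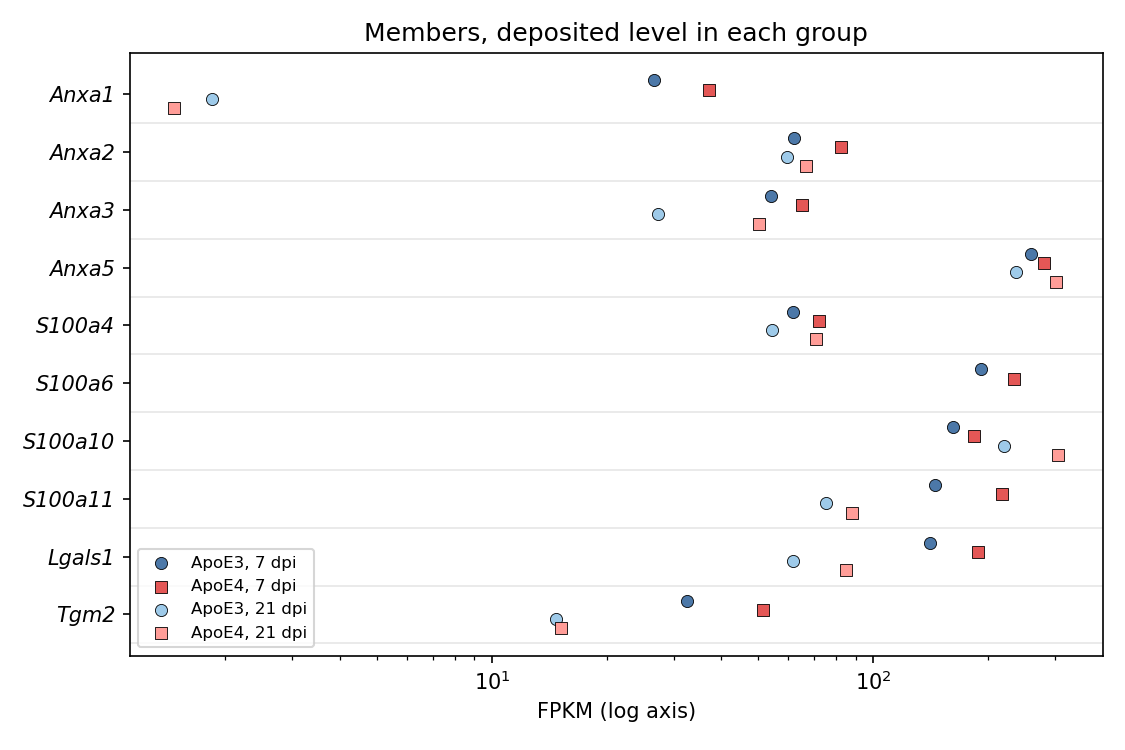
FPKM of each member (log axis) in the 4 groups, with ApoE3 as circles, ApoE4 as squares and 21 dpi in lighter colours, 1 deposited value per point. Anxa1 lies at 26.6 and 37.2 FPKM at 7 dpi and at 1.84 and 1.47 FPKM at 21 dpi, and S100a6 has no points at 21 dpi.

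Promoters are printed for Anxa2, S100a11 and Anxa1, which were among the members past 1.3-fold higher in ApoE4 at 7 dpi (described after the sequences), to show what their start regions hold. The RefSeq table used holds a promoter for 6 of the 10 members, those of Anxa1, Anxa2, Anxa5, S100a4, S100a6 and S100a11, and the 250 bases before the start were searched. Capitals mark TGANTCA on either strand (the motif reads alike on both), the sequence bound by AP-1 factors of the Fos and Jun families. The sequences run 5′ to 3′ on the strand of the gene in GRCm38.p6, at chr9:69453433-69453682 (plus strand) for Anxa2, chr3:93520246-93520495 (plus strand) for S100a11 and chr19:20390672-20390921 (minus strand) for Anxa1.
Anxa2: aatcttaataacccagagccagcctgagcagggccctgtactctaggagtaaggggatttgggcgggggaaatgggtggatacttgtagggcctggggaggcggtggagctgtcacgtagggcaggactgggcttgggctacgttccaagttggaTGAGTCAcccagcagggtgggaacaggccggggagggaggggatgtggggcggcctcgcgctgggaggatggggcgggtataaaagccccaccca
S100a11: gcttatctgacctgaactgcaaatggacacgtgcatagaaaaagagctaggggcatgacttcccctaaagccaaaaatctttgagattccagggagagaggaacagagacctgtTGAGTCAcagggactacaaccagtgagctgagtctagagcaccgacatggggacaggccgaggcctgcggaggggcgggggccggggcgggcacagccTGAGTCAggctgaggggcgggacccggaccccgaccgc
Anxa1: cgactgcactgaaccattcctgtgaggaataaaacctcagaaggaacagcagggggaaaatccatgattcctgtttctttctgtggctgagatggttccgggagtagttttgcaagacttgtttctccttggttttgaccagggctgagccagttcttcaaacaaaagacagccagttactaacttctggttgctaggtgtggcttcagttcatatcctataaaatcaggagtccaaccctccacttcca
The motif was found once in Anxa2, starting 95 bases before the start of the gene, and at 136 and 38 bases before the start in S100a11, each time as TGAGTCA. It was in none of the other 4 promoters, that of Anxa1 included. Among all 32851 promoter windows of this length, 6.75% held it, against 2 of the 6 members with a promoter. The letters TATAAA, of the TATA box, were found on the strand of the gene in 3 of the 6, Anxa1, Anxa2 and S100a4, and in 7.59% of all windows. A match describes the letters of the window and is not a binding site, and a window without one says nothing about the factor.

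The first comparison asks how the members differ between genotypes at 7 dpi. Each ratio is the log2 of (FPKM + 1) in ApoE4 over ApoE3, minus the median over all genes whose FPKM averaged 1 or more in that comparison (centred), so a positive value means higher in ApoE4 than the typical gene. Adding 1 understates the difference of genes with low values. At 7 dpi that median was -0.0018, so centring hardly mattered. All 10 members had positive ratios, with a median of 0.34. Of them, 5 passed 1.3-fold upward and 0 passed it downward, whereas 4.71% of the 13947 genes passed it upward and 3.59% downward. With a fold of 1.5 the 5 members became 2, Tgm2 and S100a11, beside 1.46% of all genes, but S100a11 barely passed that fold, and without centring its log2 ratio of 0.584 fell short of it.

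Those past 1.3-fold were Tgm2 with a centred log2 ratio of 0.65, S100a11 with 0.59, Anxa1 with 0.47, Lgals1 with 0.41 and Anxa2 with 0.40. Tgm2 had a higher ratio than 99.0% of the genes, S100a11 than 98.6% and Anxa1 than 97.3%. The members short of that fold were S100a6 (0.29), Anxa3 (0.27), S100a4 (0.22), S100a10 (0.19) and Anxa5 (0.11). Hence Anxa5 and S100a10, among the most abundant members, had the smallest ratios, and the annexin partners S100a10 and Anxa2 had ratios of 0.19 and 0.40. The FPKM of S100a10 was 2.61 times that of Anxa2 in ApoE3 and 2.24 times in ApoE4 at 7 dpi.

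At 21 dpi, the ratios of the members were on either side of the typical gene. The median of all genes was 0.42 toward ApoE4 at this time point, with summed FPKM of 1513370 in ApoE3 and 2049970 in ApoE4, and ratios are given relative to that median. Anxa3 had a centred log2 ratio of 0.43 and passed 1.3-fold upward. Anxa1 (-0.63) and Tgm2 (-0.39) passed it downward. The counts of 1 and 2 among 9 members stand beside 7.93% and 7.16% of 11396 genes. Tgm2 lay close to the log2 of 1.3, which is 0.379. The median of the members was -0.08.

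The remaining ratios at 21 dpi were -0.26 for Anxa2, -0.20 for S100a11, -0.08 for Anxa5, -0.04 for S100a4, 0.03 for Lgals1 and 0.04 for S100a10. Without centring, Anxa2 (0.16), S100a11 (0.22), Anxa5 (0.35), S100a4 (0.38) and Tgm2 (0.04) were higher in ApoE4, and Anxa1 (-0.20) was the member still lower. Of all genes, 94.1% were above 0 without centring. The counts past 1.3-fold then became 4 members higher and 0 lower, beside 59.0% of all genes higher and 1.80% lower. Anxa3 stood higher in ApoE4 at 21 dpi with and without centring, with an uncentred log2 ratio of 0.86. The ratio of Anxa1 rests on 1.84 and 1.47 FPKM.

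**Figure D2:**
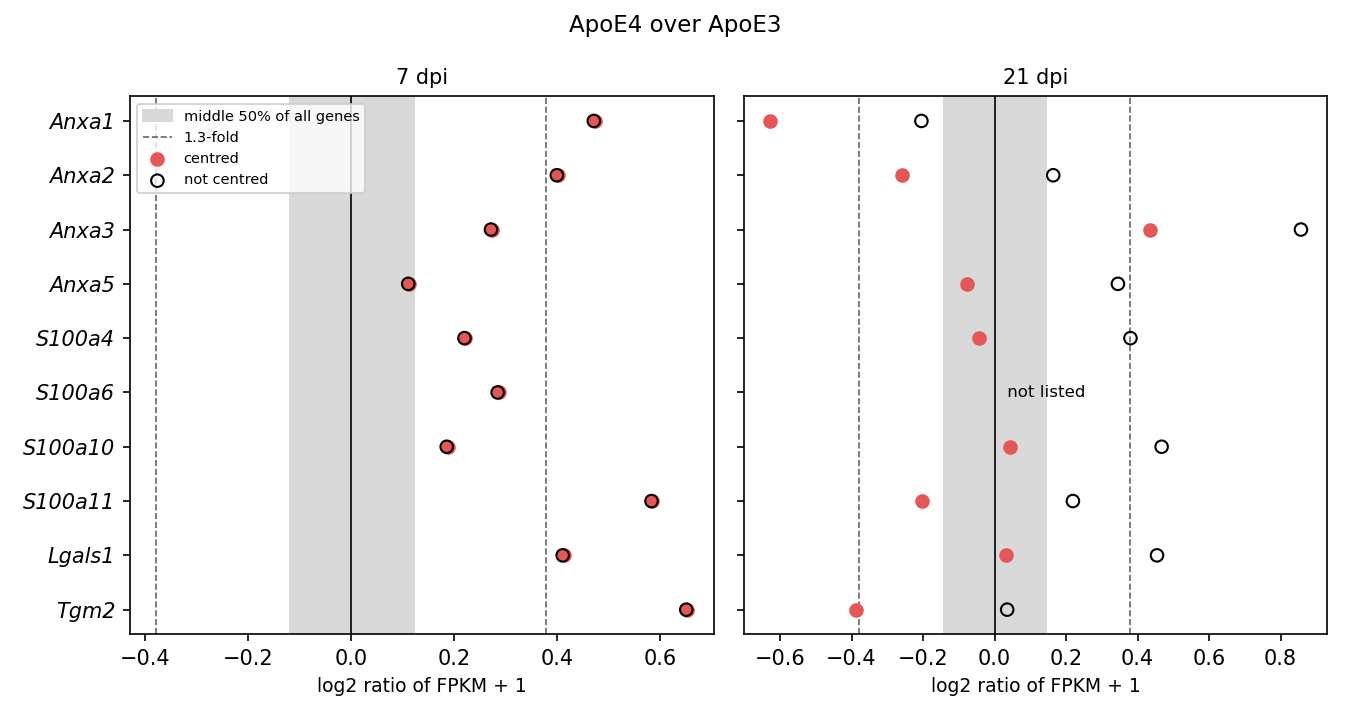
Log2 ratio of FPKM + 1, ApoE4 over ApoE3, for each member at 7 dpi and at 21 dpi, with filled points centred on the median of all genes and open points not centred; the grey band spans the middle 50% of genes and dashed lines mark 1.3-fold. All 10 filled points are above 0 at 7 dpi, whereas at 21 dpi 3 of 9 are. Without centring, 8 of the 9 open points at 21 dpi are above 0, beside 94.1% of all genes.

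Set side by side, the genotype ratio at 21 dpi minus that at 7 dpi was below 0 for 8 of the 9 members listed at both times, and 49.0% of 10861 genes were below 0. The difference was -1.10 for Anxa1, -1.04 for Tgm2, -0.79 for S100a11 and -0.66 for Anxa2. It was -0.38 for Lgals1, -0.27 for S100a4, -0.19 for Anxa5 and -0.14 for S100a10, and 0.16 for Anxa3. Without centring, Anxa1 (-0.68), Tgm2 (-0.62), S100a11 (-0.36) and Anxa2 (-0.24) stayed below 0 and the other 5 were above 0. The 49.0% of genes holds for the centred difference alone, and no such share is given here without centring. The median genotype ratio of all genes was then -0.0018 at 7 dpi and 0.42 at 21 dpi, so these counts cannot be set beside 49.0%. None of these differences was tested.

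Over time, most members were lower at 21 dpi. Genotype ratios were computed within a time point, but levels at 7 and 21 dpi come from separately normalized comparisons, so a ratio across them also carries any difference in scaling. The comparisons over time use the same groups as those between genotypes. In ApoE3, 5 of 9 members passed 1.3-fold downward and 0 upward, beside 27.7% and 26.6% of 10830 genes. In ApoE4, 8 of 9 passed it downward and 0 upward, beside 28.6% and 26.2% of 10862 genes. With a fold of 2, the members lower were 5 in ApoE3 and 4 in ApoE4, beside 8.50% and 9.04% of all genes. The median of the members was -1.03 in ApoE3 and -0.90 in ApoE4. The median of all genes that was subtracted was 0.09 in ApoE3 and 0.53 in ApoE4, and without centring the counts in ApoE4 were 4 lower and 1 higher, beside 10.9% and 59.1% of all genes.

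Anxa1 stood apart from the other members. Its FPKM at 21 dpi was 14.4-fold lower than at 7 dpi in ApoE3 and 25.4-fold lower in ApoE4. The centred log2 ratios were -3.37 and -4.48, with 0.222% and 0.0737% of genes below them. Tgm2 (-1.17 in ApoE3 and -2.23 in ApoE4), S100a11 (-1.03 and -1.83) and Lgals1 (-1.27 and -1.67) came next in ApoE4. In ApoE3, Anxa3 (-1.05, and -0.90 in ApoE4) was among them, below S100a11.

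The other members lay nearer the typical gene. Anxa2 had ratios of -0.15 in ApoE3 and -0.83 in ApoE4, S100a4 of -0.27 and -0.55, and Anxa5 of -0.22 and -0.42, or 0.11 in ApoE4 without centring. S100a10 was the member above the typical gene in both, with 0.36 in ApoE3 and 0.20 in ApoE4. Between partners, S100a10 had 2.61 times the FPKM of Anxa2 in ApoE3 and 2.24 times in ApoE4 at 7 dpi, and 3.73 and 4.60 times at 21 dpi, whereas S100a11 had 2.34 and 2.65 times the FPKM of Anxa2 at 7 dpi and 1.27 and 1.32 times at 21 dpi. S100a11 had 5.46 and 5.86 times the FPKM of Anxa1 at 7 dpi, and 40.9 and 59.9 times at 21 dpi.

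**Figure D3:**
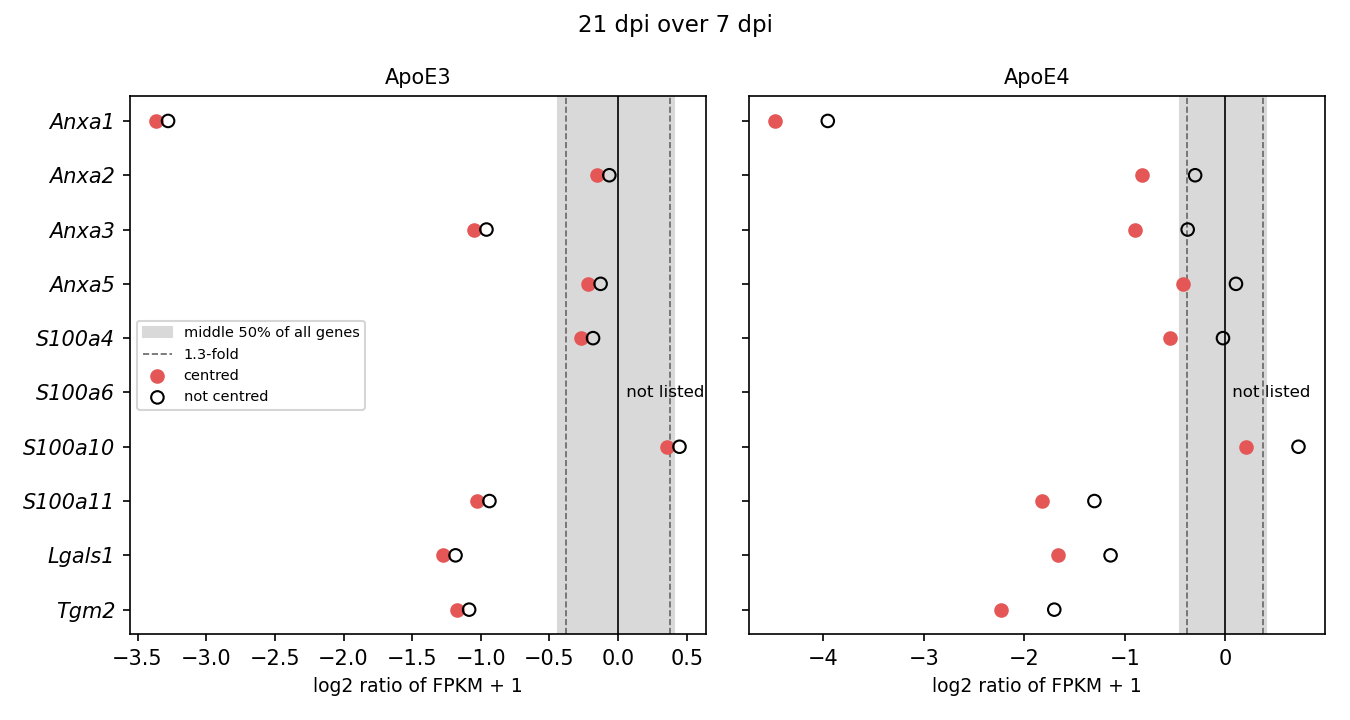
Log2 ratio of FPKM + 1, 21 dpi over 7 dpi, for each member in ApoE3 and in ApoE4, drawn as in the plot of genotype ratios, with filled points centred and open points not. Anxa1 lies at -3.37 and -4.48 and S100a10 at 0.36 and 0.20 (centred), and Anxa5 in ApoE4 is below 0 centred and above 0 not centred.

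By the distance between profiles over the 4 groups, each with its own mean subtracted, Anxa5 and S100a4 were nearest to each other (0.12 log2 units), as were S100a11 and Lgals1 (0.21). Anxa2 was nearest to S100a4 (0.21), Tgm2 to S100a11 (0.31), Anxa3 to Lgals1 (0.58) and S100a10 to Anxa5 (0.61). Anxa1 had its nearest member, Tgm2, at 2.23 log2 units. So Anxa2 and S100a10, which form a complex as proteins, were not nearest to each other in RNA. Of the genes outside the members with a mean of at least 10 FPKM, those closest to the members' median profile included Lyl1 (0.04), Slc39a1 (0.08), Csf3r (0.09) and Matn4 (0.09). Lyl1, a transcription factor of blood cells, had 27.4 and 33.6 FPKM at 7 dpi and 14.9 and 23.3 FPKM at 21 dpi in ApoE3 and ApoE4. Each profile has only 4 values.

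Among the other annexins, 5 of 8 were listed at 7 dpi and 3 at 21 dpi. Anxa4 had 207 FPKM in ApoE3 and 401 FPKM in ApoE4 at 7 dpi, and 111 and 165 FPKM at 21 dpi, with centred genotype ratios of 0.95 and 0.15. That ratio at 7 dpi was above those of all 10 members, and Anxa4 was the 1 other annexin past 1.3-fold there. Anxa6 had 225 and 223 FPKM and Anxa7 177 and 170.02 FPKM at 7 dpi. At 21 dpi, Anxa9 (-0.90) and Anxa11 (-0.46) passed 1.3-fold downward, at levels under 10 FPKM in each group. Without centring Anxa11 was at -0.03 (8.70 FPKM in ApoE3 and 8.47 FPKM in ApoE4) and did not pass.

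The other S100 genes lay on both sides of the typical gene at 7 dpi, where 0 of 6 passed 1.3-fold upward and 2 passed it downward. At 21 dpi 1 of 4 passed it upward and 0 downward, or 4 and 0 without centring. S100b, of astrocytes, had 430.4 FPKM in ApoE3 and 453 FPKM in ApoE4 at 7 dpi, and 720.3 and 1228 FPKM at 21 dpi. S100a1 had 189 and 183 FPKM at 7 dpi and 264 and 429.7 FPKM at 21 dpi. S100a8 and S100a9, the calprotectin pair of neutrophils, were the 2 past the fold downward at 7 dpi. S100a9 had 14.1 FPKM in ApoE3 and 8.19 FPKM in ApoE4 at 7 dpi, and 10.3 and 27.4 FPKM at 21 dpi, and S100a8 was at most 5.28 FPKM in the 4 groups.

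The S100 members share chromosome 3. In the order of RefSeq genes in GRCm38.p6, S100a4 has S100a2 and S100a5 as its neighbours and S100a6 has S100a5 and S100a7a, none of them listed in the table. S100a11 and S100a10 are adjacent, with 56 protein-coding genes between S100a9 and S100a11, Tchhl1 on the far side of S100a11 and Tdpoz2 on that of S100a10. These adjacent members differed over time, S100a11 with lower and S100a10 with higher FPKM at 21 dpi than at 7 dpi in both genotypes. S100a16, in the same run as S100a4 and S100a6, was the highest S100 gene at 7 dpi, with 966 FPKM in ApoE3 and 1014 FPKM in ApoE4.

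**Figure D4:**
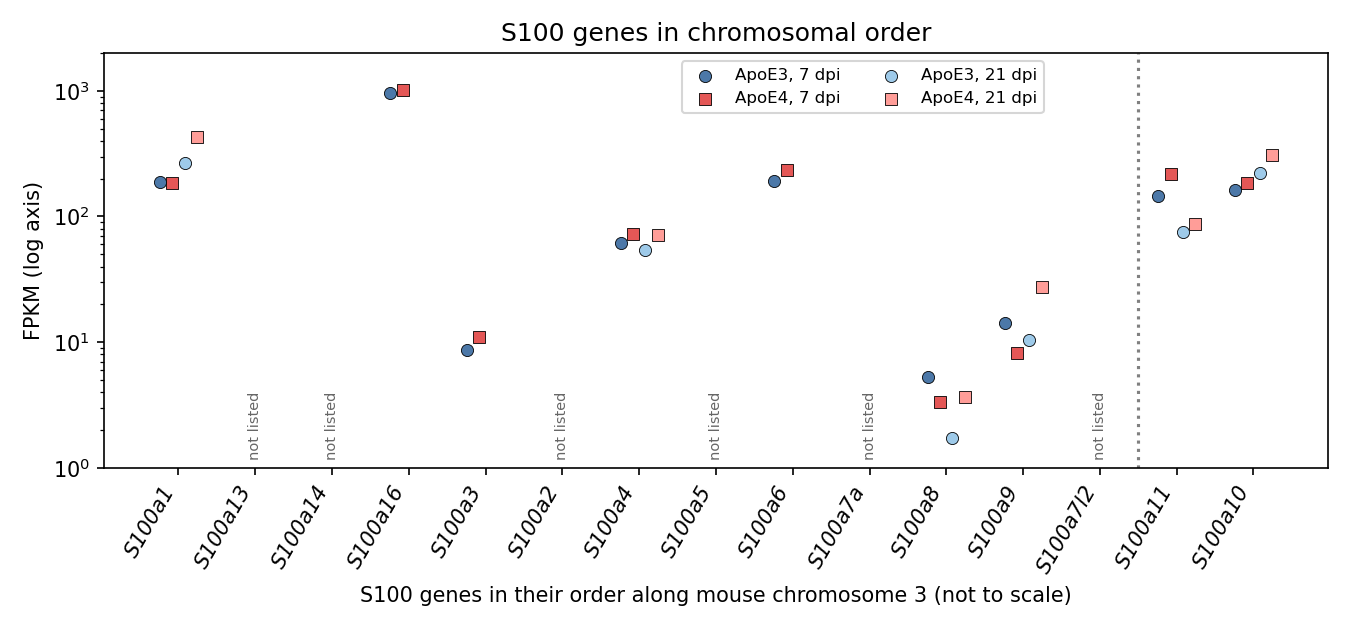
FPKM (log axis) of S100 genes in their order along chromosome 3, not to scale, in the 4 groups, 1 deposited value per point; the dotted line marks the 56 protein-coding genes between S100a9 and S100a11. S100a11 is lower at 21 dpi (75.3 and 87.8 FPKM) than at 7 dpi (145 and 218 FPKM), and its neighbour S100a10 is higher (221 and 306 against 162 and 184 FPKM).

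Of the other galectins, 5 of 8 were listed at 7 dpi and 4 at 21 dpi, and 0 passed 1.3-fold between genotypes at 7 dpi. Lgals3, of phagocytes, had 448 FPKM in ApoE3 and 546 FPKM in ApoE4 at 7 dpi, and 69.5 and 111 FPKM at 21 dpi. Its centred ratios over time, -2.76 and -2.81, were below those of Lgals1. Lgals8 had 664 and 587 FPKM at 7 dpi, and Lgals9 103 and 89.3 FPKM at 7 dpi and 58.1 and 73.5 FPKM at 21 dpi. Among the other transglutaminases, Tgm1 had 52.5 FPKM in ApoE3 and 74.0 FPKM in ApoE4 at 7 dpi, and 19.8 and 40.5 FPKM at 21 dpi. Its centred genotype ratio was 0.49 at 7 dpi and 0.58 at 21 dpi, whereas that of Tgm2 was 0.65 and -0.39. F13a1, the factor XIII subunit of phagocytes, had 36.9 and 55.4 FPKM at 7 dpi.

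The receptors and partners of annexins and S100 proteins include the plasminogen system that Anxa2 and S100a10 assemble. At 7 dpi 2 of 11 listed genes passed 1.3-fold upward in ApoE4 and 0 downward. Among them was the urokinase gene Plau, with 47.7 FPKM in ApoE3 and 71.9 FPKM in ApoE4 at 7 dpi and 11.9 and 23.5 FPKM at 21 dpi. Dysf, which encodes the membrane repair protein dysferlin, had 126 and 157 FPKM at 7 dpi and 239 and 266 FPKM at 21 dpi. Ahnak, a scaffold bound by Anxa2 and S100a10, had 177 and 194 FPKM at 7 dpi and 189.8 and 151 FPKM at 21 dpi, and Trp53 had 74.3 and 82.8 FPKM at 7 dpi. The Anxa1 receptor genes Fpr1, Fpr2 and Fpr3 were not listed at either time point.

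Among partners of Lgals1 and Tgm2, 1 of 7 passed 1.3-fold upward at 7 dpi, the integrin gene Itga5. It had 29.5 FPKM in ApoE3 and 43.9 FPKM in ApoE4 at 7 dpi, and 5.76 and 8.44 FPKM at 21 dpi. Itgb1, which encodes its partner subunit and binds Tgm2 as a protein, had 59.7 and 71.1 FPKM at 7 dpi and 29.2 and 40.7 FPKM at 21 dpi. Adgrg1, a receptor for Tgm2, had 751 and 670.2 FPKM at 7 dpi and 861 and 1144 FPKM at 21 dpi. It was lower in ApoE4 at 7 dpi and higher at 21 dpi than at 7 dpi, opposite to Tgm2 in both respects, whereas between genotypes at 21 dpi the centred ratios were -0.01 for Adgrg1 and -0.39 for Tgm2, and both genes had higher FPKM in ApoE4. Fn1 (454 and 511 FPKM) and Spp1 (918 and 1809 FPKM) were listed at 21 dpi alone.

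In the list for membrane repair and the cortical cytoskeleton, 1 of 16 genes passed 1.3-fold upward at 7 dpi, Tagln2, and 0 of 14 passed it in either direction at 21 dpi, or 7 upward and 0 downward without centring. Tagln2 had 70.5 FPKM in ApoE3 and 91.9 FPKM in ApoE4 at 7 dpi, and 36.3 and 41.4 FPKM at 21 dpi. Its centred log2 ratio at 7 dpi barely passed the log2 of 1.3, and without centring (0.377) it did not. That ratio was below those of Anxa2, Lgals1, Anxa1, S100a11 and Tgm2. Over time, 8 of 14 passed the fold downward and 3 upward in each genotype, beside 27.7% and 26.6% of all genes in ApoE3 and 28.6% and 26.2% in ApoE4, and without centring the counts were 8 and 4 in ApoE3 and 6 and 5 in ApoE4. Capg was among those lower, with 439 and 477 FPKM at 7 dpi and 128 and 170.2 FPKM at 21 dpi. Tmsb10 had 614 and 626 FPKM at 7 dpi and 929 and 971 FPKM at 21 dpi, and Eml1 had 562 and 513 FPKM and then 778 and 993 FPKM. Actn4 had 483 and 473 FPKM at 7 dpi.

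The labelled tissue was checked with marker genes. Gfap of astrocytes was at 12395 and 12386 FPKM at 7 dpi and at 8201 and 15313 FPKM at 21 dpi, and Mbp and Snap25 were listed in every group. Of 12 macrophage markers listed at 7 dpi, 9 were above the typical gene in ApoE4 and 3 below it, Csf1r (-0.11), Mrc1 (-0.07) and Adgre1 (-0.02), whereas all 10 members were above it. Of these markers, 5 passed 1.3-fold upward in ApoE4 and 0 downward, with a median of 0.34 beside 0.34 for the members. Over the 10 macrophage markers listed at both times, the summed level was 8155 FPKM in ApoE3 and 10631.5 FPKM in ApoE4 at 7 dpi, with Lyz2 the most abundant (4522 and 6076 FPKM), and none was at 0. At 21 dpi the sums were 1328 and 2533 FPKM, C1qa was the most abundant (419 and 790.4 FPKM), and all 10 had centred ratios over time below 0 in both genotypes, though Aif1 in ApoE4 had more FPKM at 21 dpi (319.6) than at 7 dpi (285). Between genotypes at 21 dpi, 6 of these 10 passed the fold upward, whereas Anxa1 and Tgm2 passed it downward. Without centring all 10 passed it upward and no member downward. Gpnmb had 892 and 1098 FPKM at 7 dpi and 44.8 and 65.3 FPKM at 21 dpi. The part of these cells in the members' levels was not tested.

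All 10 fibroblast and pericyte markers were above the typical gene in ApoE4 at 7 dpi, with 2 past 1.3-fold and a median of 0.33, and at 21 dpi 0 of 9 passed it upward and 5 downward, or 1 and 3 without centring. Over the 9 listed at both times, their summed level was 856 FPKM in ApoE3 and 1061 FPKM in ApoE4 at 7 dpi, led by Col1a1 (212 and 269.96 FPKM), and 239 and 226 FPKM at 21 dpi, led by Rgs5 (86.8 and 109 FPKM). Dcn had 45.7 and 56.6 FPKM at 7 dpi and 61.9 and 9.37 FPKM at 21 dpi, and without it the sums at 21 dpi were 177 FPKM in ApoE3 and 216 FPKM in ApoE4, in the opposite order. Col1a1 had 2.44 and 2.27 FPKM at 21 dpi, and Col3a1 had 178 and 243 FPKM at 7 dpi and 2.31 and 1.79 FPKM at 21 dpi. Both, like Anxa1, were below 3 FPKM at 21 dpi in each genotype, but the list was not uniform. Col1a2 had 134 and 173 FPKM at 7 dpi and 8.41 and 6.19 FPKM at 21 dpi, Pdgfra was at 42.0 and 58.8 FPKM at 21 dpi, and no marker was at 0. The part of these cells in the level of Anxa1 was not tested.

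Markers of other cord cells are given by list. Neuron markers were below the typical gene in ApoE4 for 10 of 10 at 7 dpi, with summed levels of 4895 and 3816 FPKM over the 8 listed at both times, led by Snap25 (3366 and 2545 FPKM), while all 10 members were above it. At 21 dpi their sums were 8153 and 12161 FPKM. Of the astrocyte markers, 0 of 7 passed 1.3-fold at 7 dpi and 2 of 8 passed it upward at 21 dpi (8 without centring), and the 7 listed at both times summed to 17067 and 16625 FPKM and then 10287 and 18884 FPKM. Over time, astrocyte markers, like most members, were below the typical gene for 7 of 7 in each genotype, with medians of -0.68 and -0.32, though in ApoE4 the median was 0.20 without centring. Of the endothelial markers, 1 of 8 passed it upward at 7 dpi (Vwf, 21.6 and 35.4 FPKM) and 2 of 7 downward at 21 dpi, with 6 of 8 above the typical gene at 7 dpi and 0 of 7 at 21 dpi. Without centring 0 passed it downward and 1 upward at 21 dpi, and 5 of 7 were above 0, beside 94.1% of all genes. Their medians over time were 0.04 in ApoE3 and -0.30 in ApoE4, or 0.22 in ApoE4 without centring, and those of neuron markers were 0.70 and 1.27. Of the oligodendrocyte markers, 0 of 5 at 7 dpi and 0 of 7 at 21 dpi passed it (7 upward without centring), and Mbp had 120571 and 127575 FPKM, then 201348 and 278678 FPKM. Of the neutrophil markers, 1 of 4 passed it upward and 2 downward at 7 dpi, and 2 of 5 upward at 21 dpi (4 without centring), and Csf3r was the most abundant in each group (485 and 589 FPKM, then 279 and 405 FPKM).

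At 21 dpi the groups also differed in markers of tissues beside the cord. Schwann cell markers summed to 1769.8 FPKM in ApoE3 and 747 FPKM in ApoE4, with 6 of 7 past 1.3-fold downward, Drp2 among them at 294 and 109 FPKM. Of the sensory ganglion markers with a mean of at least 1 FPKM, 5 of 7 passed it downward, Avil among them with 39.1 and 1.20 FPKM, 1 passed it upward (Tac1, 78.8 and 188 FPKM), and in ApoE4 the table lists 0 for both Trpv1 and Mrgprd. The sum of the list was nevertheless 886 FPKM in ApoE3 and 1026 FPKM in ApoE4, led by Calca (702 and 829.5 FPKM). Skeletal muscle markers were higher in ApoE4 for 6 of 6 and summed to 33.6 and 693 FPKM, led by Tnnt3 (22.5 and 515 FPKM), with Myh4 listed at 0 in ApoE3. Liver markers were higher in ApoE4 for 7 of 7 and summed to 10.7 and 129 FPKM, led by Apoa2 (5.38 and 59.2 FPKM). At 7 dpi, Drp2 had 83.9 and 81.7 FPKM, Tnnt3 45.7 and 26.5 FPKM, and no liver marker was listed. Their part in the members' ratios at 21 dpi was not tested, and no comparison at 21 dpi can be made without these groups, each of which is 1 deposited value.

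**Figure D5:**
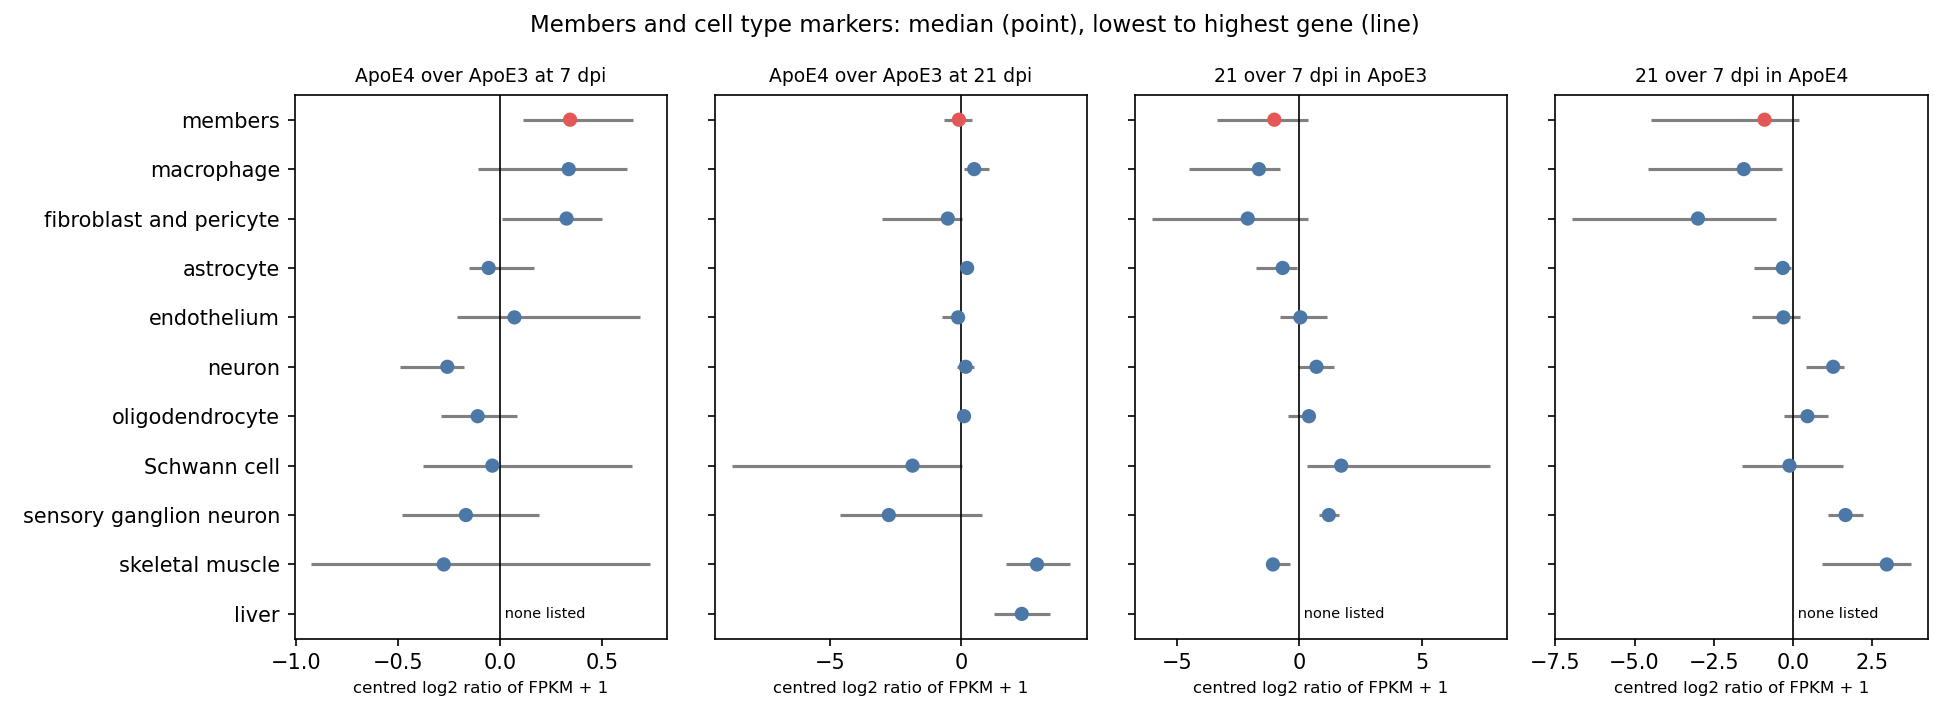
Centred log2 ratio of FPKM + 1 for the members (red) and the cell type marker lists (blue) in the 4 comparisons, as the median of each list (point) and its lowest to highest gene (line), with axes scaled separately. The members' median is 0.34 at 7 dpi, as is that of macrophage markers, and -1.03 and -0.90 over time; without centring the members' median at 21 dpi turns from -0.08 to 0.35.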

How the data were processed

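RNA-seq values of 4 groups were used. The authors down-sampled the libraries to the smallest one, and the submitters' processing notes name STAR 2.5.4b, SAMtools 0.1.7 and Cuffdiff 1.3.0. The genome build and annotation were not given in the sources used here. The values deposited are FPKM with 1 added, a single value per gene and group, and 1 was subtracted. Their columns of fold changes, p-values and calls, and a second table of their selected genes, were not used. All 25601 rows passed the status column, and 25341 matched a RefSeq symbol of GRCm38.p6.

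Log2 ratios used a pseudocount of 1 and were centred on the median over genes whose FPKM averaged 1 or more. No test was run, because a group has 1 value. The procedure was tested on simulated data, and no result given here rests on that. The genes named were the members, up to 5 of each list by level or by a 2-fold ratio, the nearest profiles and the chromosomal neighbours; other genes were named after their values were seen, and the values of some genes under this rule are left out. The members and lists were chosen with earlier results of these data known. Alternatives were a pseudocount of 0.1, no centring, equal sums of FPKM, other minimum levels, folds of 1.5 and 2 and the second reading of genotype. Python 3.11.15, numpy 2.4.6, pandas 2.3.3 and matplotlib 3.10.9 were used.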

Additional observations from a re-analysis of the deposited data

Results flagged for a closer look

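For 2 members the genotype ratio passed 1.3-fold in opposite directions at the 2 time points. Anxa1 was higher in ApoE4 at 7 dpi (0.47) and lower at 21 dpi (-0.63), a difference of -1.10 on the centred log2 scale. Tgm2 was higher in ApoE4 at 7 dpi (0.65) and lower at 21 dpi (-0.39), a difference of -1.04. With 1 value per group these differences were not tested. Of 10861 genes listed at both times, 179 (1.65%) passed the fold in opposite directions. Without centring, 0 members did so. Anxa1 was then at 0.47 and -0.20, short of 1.3-fold at 21 dpi, and Tgm2 at 0.65 and 0.04.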

How the results depend on the processing

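At 7 dpi, the log2 ratios of all 10 members moved by less than 0.1 with a pseudocount of 0.1, without centring and with equal sums of FPKM. Of the 5 members higher past 1.3-fold at 7 dpi, folds of 1.5 and 2 left 2 and 0, beside 1.46% and 0.172% of all genes. S100a11, 1 of these 2, fell short of 1.5-fold without centring and with equal sums (0.584 in both). Reading the first value as ApoE4 gave a median of -0.34, with 0 higher and 5 lower.

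At 21 dpi, the median of the members was 0.35 without centring and 0.0783 with the first value read as ApoE4. The count higher was 4 without centring, 0 with folds of 1.5 and 2, and 2 with the second reading. Without centring, 59.0% of all genes were higher past 1.3-fold and 1.80% lower. The count lower was 0 without centring, 1 with a mean FPKM of at least 10 (Anxa1 then drops out), 1 with a fold of 1.5, 0 with a fold of 2 and 1 with the second reading. Of all genes, 3.57% were higher and 3.28% lower past 1.5-fold, and 1.10% and 1.19% past 2-fold. Without centring, the ratios of 5 members turned sign, Tgm2 to 0.0353, Anxa2 to 0.16, S100a11 to 0.22, Anxa5 to 0.35 and S100a4 to 0.38.

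Over time without centring, 1 member was higher past the fold in each genotype, beside 31.4% of all genes in ApoE3 and 59.1% in ApoE4. In ApoE3 5 members were then lower, beside 23.6% of all genes. In ApoE4 the median was -0.37 with 4 lower, beside 10.9% of all genes. With centring, a fold of 1.5 left 5 members lower in ApoE3 and 6 in ApoE4, beside 18.8% and 19.3% of all genes. A fold of 2 left 5 lower in ApoE3 and 4 in ApoE4, beside 8.50% and 9.04% of all genes. Which genotype had the larger count thus depended on the fold. With equal sums of FPKM the medians over time were -1.21 in ApoE3 and -1.08 in ApoE4. Past 1.3-fold, 7 members were then lower in ApoE3 and 8 in ApoE4, for which no share of all genes is given here.

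The alternatives for the difference between time points were chosen after seeing the data. Without centring it was -0.68 for Anxa1, -0.24 for Anxa2, 0.59 for Anxa3, 0.23 for Anxa5, 0.16 for S100a4, 0.28 for S100a10, -0.36 for S100a11, 0.0433 for Lgals1 and -0.62 for Tgm2, so that Anxa5, S100a4, S100a10 and Lgals1 turned sign. For Anxa1 a pseudocount of 0.1 gave -1.24. The moves without centring follow from the subtracted medians by construction. No paired analysis was possible because each group has 1 value. The libraries were down-sampled to a common number of reads before alignment. According to the methods of the study, a single replicate, whose group they do not name, aligned at a lower rate than the others. The reads behind each gene's FPKM are unknown, which leaves the precision of low values such as Anxa1 at 21 dpi without a measure.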
